A study of Mus musculus with 42 samples.

Results

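The arrays described here are control livers of male C3HeB/FeJ mice that differ in an array signal of Malat1, an abundant long noncoding RNA. All 42 arrays of the series were from wild-type, single-housed, randomly fed mice: 18 controls kept on low-fat food, 15 to 17 weeks old, and 3 groups of 8 on high-fat food (HFD) for 7, 14 or 21 days, which were 15, 16 and 17 weeks old in that order. Among the 18 controls, 9 had a Malat1 signal of 8.5 or more on the log2 scale and were called Malat1-high, 6 had a signal below 7.5 and were called Malat1-low, and 3 lay between and entered no difference. The classes were thus chosen by the Malat1 signal of these same arrays, read from the only probe set (a group of probes summarised together) that lists Malat1 and no other gene. The labels number the arrays of a group and do not say which animal each came from, so the spread between arrays, and every p-value, may be partly technical. The word reanalysis ends the titles of controls and of 21-day arrays alone, and the labels do not say what it means.

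Malat1 RNA stays in the nucleus, where it gathers in nuclear speckles. These are bodies that store splicing factors, among them the SR proteins, which carry stretches of alternating serine and arginine, and the kinases that phosphorylate them. Many SR protein and RNA-binding protein genes make a second RNA form, through a retained intron or a poison exon, that stays in the nucleus or is degraded. A whole-transcript array with summarised probe sets does not separate such forms from the coding mRNA.

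Malat1 itself chose the classes, and its values are a description. In the Malat1-high controls it read 8.52 on replicate 2, 8.56 on replicate 18, 8.77 on replicate 9, 8.91 on replicate 3, 9.08 on replicate 12, 9.13 on replicates 6 and 15, 9.49 on replicate 8 and 9.54 on replicate 5. In the Malat1-low controls it read 5.49 on replicate 4, 6.06 on replicate 13, 6.44 on replicate 10, 6.79 on replicate 11, 7.12 on replicate 16 and 7.19 on replicate 14. The class means were 9.01 ± 0.36 (SD, n = 9) and 6.51 ± 0.66 (SD, n = 6). The 3 arrays between the thresholds were replicate 1 at 8.42, just outside the high class, replicate 17 at 7.91 and replicate 7 at 7.78, the nearest above the low class. Replicates 2 and 14, at 8.52 and 7.19, were the nearest inside. A second probe set, which lists both Malat1 and Ramp2, did not follow the first. It read 13.06 ± 0.14 (SD, n = 9) in the high class and 12.99 ± 0.07 (SD, n = 6) in the low class. Since it names 2 genes it is not used as a measure of either. Which part of the Malat1 transcript each probe set reads could not be settled. Whether the total amount of Malat1 RNA differed was therefore not tested, and the class names describe the first probe set alone.

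**Figure D1:**
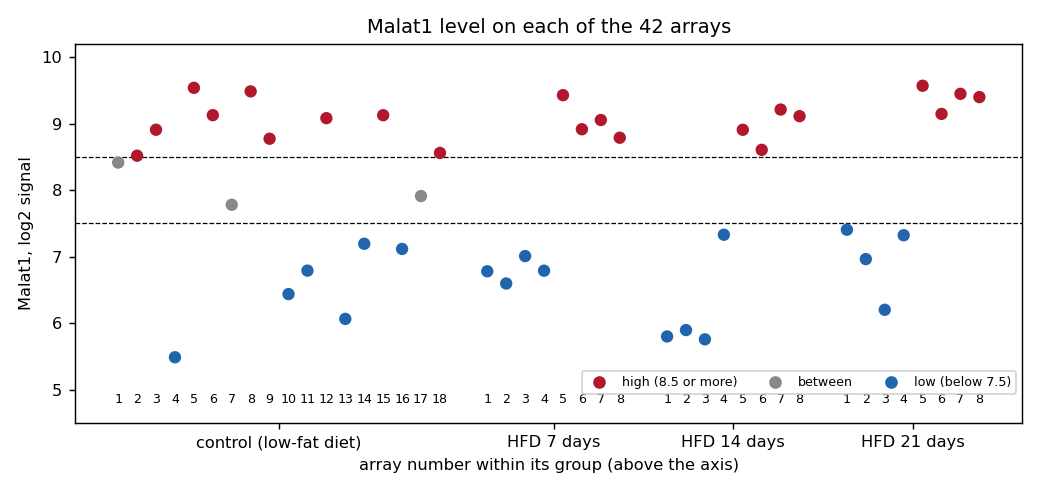
Malat1 log2 signal (vertical axis) on each of the 42 arrays, by group and array number (horizontal axis), with dashed lines at the thresholds of 8.5 and 7.5. Controls spread from 5.49 to 9.54, while all HFD arrays numbered 5 to 8 are high and all numbered 1 to 4 are low.

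The classes were uneven over the control numbers. Controls 1 to 9 held 6 high, 2 between and 1 low array, and controls 10 to 18 held 3 high, 1 between and 5 low arrays. In the HFD groups the same thresholds put all 12 arrays numbered 5 to 8 in the high class (8.61 to 9.57), all 12 numbered 1 to 4 in the low class (5.76 to 7.41) and none between. Malat1 class and array number therefore cannot be told apart in the HFD arrays. Nothing in the labels says what the numbers stand for.

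Since Malat1 chose the control classes, no test was made among the controls. A gene counted as differing where the class means were at least 1.5-fold apart and no array of one class reached the range of the other. Of 17988 genes other than Malat1, 89 were higher in the Malat1-high controls (0.495% of genes) and 63 were lower (0.35%). The lower count leaned on single arrays: it was 101 without control replicate 9, 114 without replicate 14 and 123 without replicate 18. The HFD arrays took no part in choosing the classes. There the arrays numbered 5 to 8 were tested against those numbered 1 to 4 with limma. HFD time was a covariate, and p-values were adjusted over all genes by Benjamini and Hochberg. Below, rose and fell in the HFD test or HFD arrays mean higher and lower in arrays 5 to 8 than in arrays 1 to 4. HFD arrays were not compared with controls here. In the high arrays 1890 genes were higher (10.5%) and 2198 lower (12.2%) at an adjusted p under 0.05; with each array centred on its median these became 2645 and 1442, and the share of calls that were higher moved from 46.2% to 64.7%.

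The genes that set the controls apart did so in the HFD livers too. All 89 higher genes were called higher in the HFD test and 61 of the 63 lower genes were called lower, against the 10.5% and 12.2% of all genes. The exceptions had the same sign: the angiotensin receptor gene Agtr1a was 0.34 lower (limma adjusted p = 0.0609) and Tbc1d17 was 0.18 lower (limma adjusted p = 0.21). Of the 89 higher genes, 45 had HFD ranges that did not touch, out of 93 such genes in all (0.517% of genes). Of the 63 lower genes, 6 had HFD ranges that did not touch, out of 34 in all (0.189%). The 150 shared genes were a small part of the HFD calls, 4.71% of the higher and 2.78% of the lower ones. Over all genes, 76.8% had the same sign of difference in controls and HFD arrays.

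**Figure D2:**
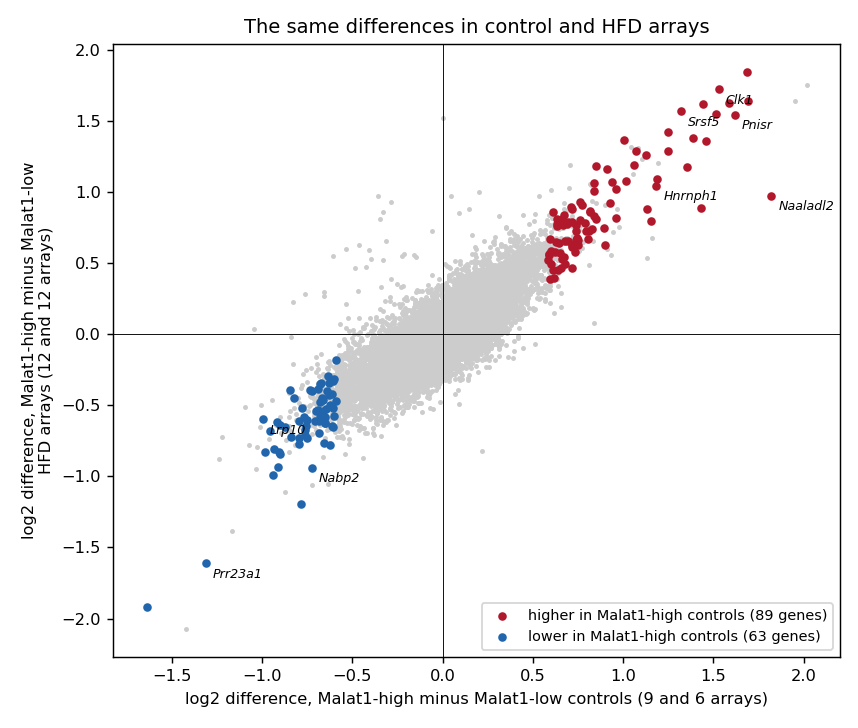
Log2 difference between Malat1-high and Malat1-low arrays for each of 17988 genes, in controls (horizontal axis) and in HFD arrays (vertical axis). Red points are the 89 genes higher and blue points the 63 genes lower in Malat1-high controls, and all 152 keep their sign in the HFD arrays.

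The kinases of SR proteins and their cyclin partners were among the largest differences. Clk1, a kinase that phosphorylates SR proteins, ran from 7.16 through a median of 7.81 to 8.5 in the Malat1-high controls and from 5.72 through 6.36 to 7.02 in the Malat1-low controls. The classes did not overlap, and Clk1 was 2.89-fold higher in the high class. Among the HFD arrays it was 1.72 ± 0.14 higher in the high class on the log2 scale (SE, limma adjusted p = 2.22e-09), again without overlap. Clk4, a kinase of the same family, ran from 5.80 to 7.04 in the high controls and from 4.93 to 6.01 in the low ones; this small overlap kept it out of the 89 although its mean differed by 1.08. Among the HFD arrays, Clk4 was 1.31 ± 0.10 higher in the high class (SE, limma adjusted p = 2.22e-09).

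Cyclins L1 and L2 reside in speckles and bind the kinase Cdk11. Ccnl2 ran from 6.81 through 6.96 to 7.33 in the high controls and from 5.17 through 5.46 to 6.0 in the low controls, a 2.86-fold difference with no overlap. Ccnl1 ran from 4.99 to 5.82 against 3.83 to 4.5, a 2.38-fold difference. Their HFD differences were, for Ccnl2 and Ccnl1 in turn, 1.55 ± 0.10 and 1.29 ± 0.11 (SE; limma adjusted p = 2.24e-10 and 4.07e-09). Of the 11 measured kinases and cyclins of this list, 4 were higher and none lower in the high controls, with Prpf4b as the fourth. This was 36.4% higher, beside 0.495% of all genes. In the HFD test 6 rose (54.5%, beside 10.5% of all genes) and none fell. The list's median difference was 0.27 in controls and 0.29 in HFD arrays, beside 0.00 and -0.01 over all genes.

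Of the SR proteins, 4 of the 10 measured were higher in the Malat1-high controls (40%, beside 0.495% of all genes). Srsf5, an SR splicing factor, ran from 8.22 through 8.4 to 8.66 in the high controls and from 6.74 through 6.96 to 7.70 in the low ones. These ranges lay apart by more than the whole spread of the high class, and the fold was 2.50. Tra2b, an SR-like splicing regulator, ran from 7.60 to 8.55 against 6.91 to 7.41, and Srsf2 from 7.75 to 8.49 against 7.04 to 7.75, where the classes all but touched. Srsf6, the fourth, was 1.67-fold higher. Of the 10 SR proteins, 6 rose in the HFD test (60%, beside 10.5% of all genes) and none fell. Srsf5 rose by 1.57 ± 0.13 (SE, limma adjusted p = 3.45e-09), Srsf6 by 0.77, Srsf2 by 0.66, Tra2b by 0.63, Srsf11 by 0.50 and Tra2a by 0.32.

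Proteins related to the SR family and other residents of speckles gave the largest count of higher genes, 10 of 42 measured, with none lower. This share, 23.8%, stood beside 0.495% of all genes. It was below the 40% of the SR proteins and the 36.4% of the SR kinases and cyclins L. Pnisr, whose protein binds pinin, ran from 5.30 through 5.77 to 6.20 in the high controls and from 3.83 through 4.10 to 4.44 in the low controls, a 3.07-fold difference. Luc7l3, a LUC7-like protein of the U1 particle, which recognises the 5′ splice site, ran from 6.24 through 6.70 to 7.22 against 4.76 through 5.32 to 5.56. Pnn, which encodes pinin, ran from 5.93 to 6.92 against 4.67 to 5.6, and the splicing factor gene Rbm39 from 7.00 to 7.80 against 5.96 to 6.70. Between the HFD classes Pnisr differed by 1.54, Luc7l3 by 1.62, Rbm39 by 1.07 and Pnn by 0.88. Their limma adjusted p-values were 8.03e-10, 8.03e-10, 1.41e-07 and 2.34e-08.

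The core proteins of the speckle itself differed less. Son, which with Srrm2 builds the speckle, ran from 5.92 to 6.76 in the high controls and from 5.80 to 6.14 in the low controls, so the classes overlapped at a mean difference of 0.44, and in the HFD arrays it rose by 0.52 (limma adjusted p = 0.00148). Srrm2 ran from 6.26 to 7.44 against 6.29 to 7.18 and differed by 0.10 in the controls and by 0.24 in the HFD arrays (limma adjusted p = 0.226). In the HFD test 21 of the 42 genes of this list rose (50%) and 1 fell (2.38%), beside 10.5% and 12.2% of all genes. The gene that fell was Rnps1, a component of the exon junction complex, at -0.51 in controls and -0.50 in HFD arrays.

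**Figure D3:**
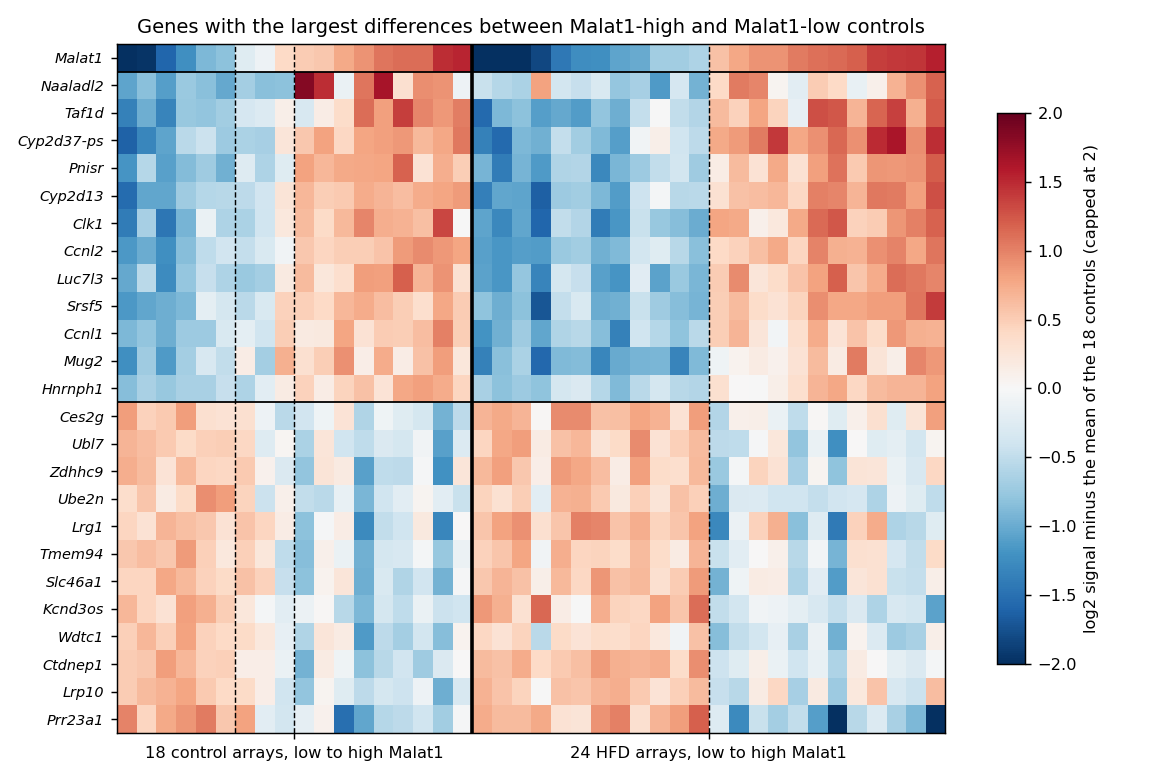
Log2 signal minus the mean of the 18 controls (colour, capped at 2) for Malat1, the 12 genes most above and the 12 most below in Malat1-high controls by the naming rule (rows), on controls and HFD arrays ordered by Malat1 (columns). The thick line parts controls from HFD arrays and dashed lines part the Malat1 classes, across which nearly all rows change colour.

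Among heterogeneous nuclear ribonucleoproteins and related RNA-binding proteins, 5 of 34 were higher (14.7%) and 1 was lower in the Malat1-high controls. Of all genes, 0.495% were higher and 0.35% lower. Hnrnph1, a splicing regulator that binds G-rich RNA, ran from 6.97 through 7.26 to 7.63 in the high controls and from 5.96 through 6.17 to 6.35 in the low controls, a 2.27-fold difference. Ddx17, a DEAD-box RNA helicase, ran from 6.21 to 6.83 against 4.95 to 5.78, and its paralog Ddx5 from 8.60 to 9.12 against 7.77 to 8.31. Hnrnpdl ran from 6.32 to 7.35 against 5.59 to 6.32. The lower gene, Qk, encodes the splicing regulator quaking and ran from 6.17 to 6.84 against 7.03 to 7.39. Qk was thus the reverse of its list, by 0.66 in the controls and by 0.77 in the HFD arrays. In the HFD test 17 of the 34 rose (50%) and 3 fell (8.82%), beside 10.5% and 12.2% of all genes. Hnrnph1 rose by 1.05 ± 0.10 (SE, limma adjusted p = 1.76e-08).

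The core spliceosome did not move as a block. Of 66 measured components in this list, 1 was higher in the Malat1-high controls (1.52%, beside 0.495% of all genes). It was Prpf39, a U1-associated protein, which ran from 3.93 to 4.52 against 3.21 to 3.74. The count depends on how genes were assigned to lists. Snrnp70, of the U1 particle, and Prpf38b stood in the SR-related list and were 1.55-fold and 1.79-fold higher (named after their values were seen). Snrnp70 was 0.65 higher in the high HFD arrays (limma adjusted p = 3e-06). In the HFD test 15 components rose (22.7%) and 9 fell (13.6%), beside 10.5% and 12.2% of all genes, with a median of 0.06 over the list. Among those that rose were Sf3b1 (by 0.60) and the helicase gene Dhx15 (by 0.46), and among those that fell were Snrpa and Snrpb, of the U1 and Sm proteins (differences of -0.54 and -0.51). The Sf3 complex was split, with Sf3a1, Sf3a2 and Sf3b4 lower at -0.53, -0.35 and -0.50 in the HFD arrays.

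Paraspeckles are another nuclear body, built on Neat1, a long noncoding RNA that was not analysed here. None of the 9 measured paraspeckle proteins reached 1.5-fold without overlap in the controls, where 0.495% of all genes were higher and 0.35% lower. The list's median was 0.38 there. In the HFD test none fell and 7 of 9 rose (77.8%, beside 10.5% of all genes). Those that rose included Taf15 (0.62), Cpsf6 (0.52), Nudt21 (0.51) and Nono (0.31). Cpsf6 and Nudt21 also belong to the 3′ end processing list. Of its 21 genes, 9 rose (42.9%) and 3 fell (14.3%) in the HFD test, beside 10.5% and 12.2% of all genes. Of the 8 long noncoding RNAs of the nucleus that were measured apart from Malat1, none differed in the controls. At the control shares of all genes, a count of none among so few says little. In the HFD test 2 of the 8 rose (25%, beside 10.5% of all genes) and none fell. Tug1 rose by 0.49 and Norad by 0.26. Norad is known as a mostly cytoplasmic RNA.

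**Figure D4:**
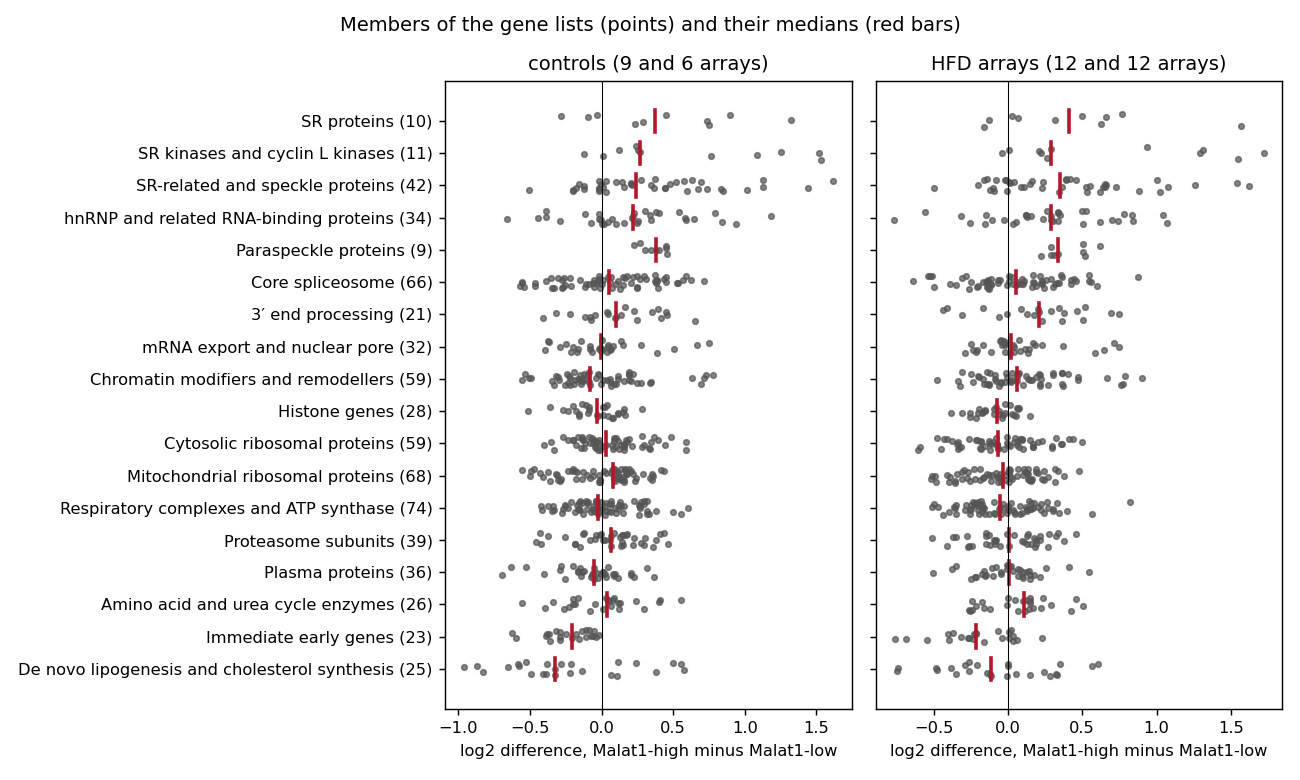
Log2 difference between Malat1-high and Malat1-low arrays (horizontal axis) for the members of 18 gene lists (rows, measured members in parentheses), in controls (left) and HFD arrays (right). Points are genes and red bars are list medians; the medians of SR proteins and paraspeckle proteins are 0.37 and 0.38 in controls, and that of the core spliceosome is 0.05.

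Chromatin genes differed singly, with 2 higher and none lower in the high controls (3.39% higher, beside 0.495% of all genes). Of 59 modifiers and remodellers, Kdm5a, a histone H3 lysine demethylase, ran from 4.82 to 5.70 in the high controls against 4.33 to 4.81 in the low ones, and Arid4b, a subunit of a deacetylase complex, from 3.88 to 4.77 against 3.40 to 3.82. In the HFD test 13 of the 59 rose (22%) and 4 fell (6.78%), beside 10.5% and 12.2% of all genes. Atrx (0.90) and Chd2 (0.77) were among those that rose. Smarca4 (-0.48) and Arid1a (-0.31), both of the SWI/SNF remodeller, were among those that fell. Of 308 zinc finger Zfp genes, 3 were higher in the high controls (Zfp280d, Zfp950 and Zfp944). This was 0.974% of them, near the 0.495% of all genes. In the HFD test 79 of them rose (25.6%) and 29 fell (9.42%). Zfp950 ran from 2.26 to 3.29 against 2.0 to 2.20, close to the olfactory receptor genes, whose 95th percentile of 2.86 marks the level of genes not used in liver. Of 28 histone genes, none differed in the controls, where 0.495% of all genes were higher and 0.35% lower. In the HFD test none rose and 3 fell (10.7%, near the 12.2% of all genes). Of all 89 higher genes, 35 stood in a nuclear or splicing list, and of the 63 lower genes, 2 did; these lists hold 956 of the genes measured.

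Some of the largest differences lay outside the lists. Taf1d, a subunit of the selectivity factor of RNA polymerase I, ran from 3.8 through 4.99 to 5.51 in the high controls and from 2.77 through 3.25 to 3.42 in the low controls, 3.23-fold apart. Taf1d was also higher in the high HFD arrays, by 1.64 ± 0.15 (SE, limma adjusted p = 2.13e-08). Taf1a, another subunit of that factor, was 1.94-fold higher in the high controls (named after its values were seen). Naaladl2 had the largest mean difference of the 89, 1.82, with 3.69 through 4.75 to 5.65 against 2.71 through 2.88 to 3.07. The low class lay at the olfactory level of 2.86, so its fold is uncertain. The high class was widely spread, with an SD of 0.72, and in the HFD arrays the classes overlapped at a difference of 0.97 ± 0.18 (SE; limma adjusted p = 0.000326). Other higher genes seen after the fact were Ogt, the O-GlcNAc transferase (1.79-fold), Ncl, which encodes nucleolin (1.76-fold), Mdm4, a p53 regulator (1.55-fold), and Nr1i3, the nuclear receptor CAR (1.71-fold).

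Cyp2d pseudogenes, a plasma protease inhibitor, a cytochrome P450 and a co-chaperone were also among the higher genes. Cyp2d13, listed by RefSeq as a transcribed pseudogene, ran from 9.10 through 9.30 to 9.46 in the high controls and from 7.06 through 7.73 to 8.05 in the low controls. Cyp2d37-ps, also a pseudogene, ran from 7.93 through 8.31 to 8.56 against 5.89 through 6.62 to 7.08. Both are near-copies of other Cyp2d genes, and which transcripts their probes read is uncertain; the coding genes Cyp2d26 and Cyp2d11 were lower in the high HFD arrays, at -0.43 and -0.24. Mug2, a murinoglobulin, a plasma protease inhibitor with a close copy in Mug1, ran from 7.56 to 8.34 against 6.20 to 7.10. Cyp2j9, a cytochrome P450, ran from 4.37 to 5.07 against 3.64 to 4.11, and Dnajc3, a co-chaperone of the endoplasmic reticulum, from 9.06 to 9.59 against 8.62 to 8.78. In the high HFD arrays these 5 genes were higher by 1.63, 1.85, 1.42, 0.81 and 0.56, with limma adjusted p-values from 1.1e-09 to 0.000141.

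The 3 hepatocyte genes of the panel overlapped between the classes. Alb, for albumin, ran from 13.30 to 13.58 in the high controls and from 13.28 to 13.51 in the low controls. Apoa1, an apolipoprotein, ran from 12.62 to 12.89 against 12.79 to 13.01, and Cps1, the first enzyme of the urea cycle, from 11.29 to 12.15 against 11.54 to 12.08. In the high HFD arrays Apoa1 was lower by 0.17 (limma adjusted p = 0.0262). Alb and Cps1 differed by 0.13 and 0.07 between the HFD classes (limma adjusted p = 0.0883 and 0.748). Of 36 plasma protein genes none differed in the controls, where 0.495% of all genes were higher and 0.35% lower. In the HFD test 3 of them rose (8.33%) and 2 fell (5.56%), beside 10.5% and 12.2% of all genes. Apob, the main protein of secreted lipoproteins, rose by 0.54 (limma adjusted p = 0.00715).

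Of 332 genes of the cytoplasmic machinery, none differed in the controls, where 0.495% of all genes were higher and 0.35% lower. Of 59 cytosolic ribosomal proteins 9 rose and 12 fell in the HFD test, with a median of -0.07. Of 68 mitochondrial ribosomal proteins 5 rose and 15 fell, and of 74 respiratory chain and ATP synthase subunits 8 rose and 17 fell. Among 39 proteasome subunits 6 rose and 7 fell. Of 51 translation factors 7 rose and 8 fell, of 39 secretory pathway genes 7 rose and 4 fell, and both measured genes of the mitochondrial genome rose. Over the 7 lists together 44 of the 332 genes rose (13.3%), beside 10.5% of all genes, and 63 fell (19%), beside 12.2%.

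Of the 63 lower genes, 2 stood in any of the lists, Qk and Mir212. Prr23a1, a proline-rich protein gene, ran from 3.84 through 4.82 to 5.43 in the Malat1-high controls and from 5.77 through 6.16 to 6.37 in the Malat1-low controls, 2.48-fold apart. In the HFD arrays it fell by 1.61 ± 0.19 (SE; limma adjusted p = 1.55e-06). Ctdnep1, a phosphatase of the nuclear envelope that acts on lipin, ran from 4.25 to 5.37 against 5.67 to 6.03, and Lrp10, a relative of the LDL receptor, from 3.79 to 4.82 against 5.17 to 5.55. Slc46a1, the proton-coupled folate transporter, ran from 5.70 to 6.91 against 7.05 to 7.44, and Lrg1, a secreted plasma glycoprotein, from 6.57 to 8.06 against 8.15 to 8.56. In each of these the low class was tight and the high class broad: the SDs were 0.15 and 0.45 for Slc46a1 and 0.17 and 0.58 for Lrg1.

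Further lower genes encode enzymes and membrane proteins. Ube2n, a ubiquitin-conjugating enzyme for lysine-63 chains, ran from 4.48 to 5.44 in the high controls against 5.56 to 6.32, and Ubl7, a ubiquitin-like protein, from 4.70 to 6.04 against 6.18 to 6.48. Zdhhc9, a palmitoyltransferase, ran from 5.38 to 6.86 against 6.87 to 7.33, and Ces2g, a carboxylesterase, from 5.54 to 6.76 against 6.77 to 7.33, so both classes all but touched. Wdtc1 (4.01 to 5.38 against 5.53 to 5.94), Tmem94 (4.74 to 5.81 against 5.90 to 6.55) and the noncoding RNA Kcnd3os (4.19 to 5.12 against 5.38 to 5.91) completed the 12. In the HFD arrays all 12 fell, by 0.60 for Lrp10 to 1.61 for Prr23a1, with limma adjusted p-values up to 0.0037 for Lrp10. The 5S ribosomal RNA n-R5s136, outside the naming rule as a small RNA, was lowest of all, at 8.87 to 10.48 against 11.14 to 12.07. Only 2 of the 63 were 2-fold or more apart, n-R5s136 and Prr23a1, against 24 of the 89 higher genes.

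Small RNA genes stood in both directions. Snord14e, a box C/D small nucleolar RNA, ran from 4.14 to 5.70 against 3.36 to 3.93. Scarna17, a small RNA of Cajal bodies, ran from 7.75 to 9.37 against 6.57 to 7.66. These 2 of 54 such probe sets differed (3.7% higher, beside 0.495% of all genes). In the HFD test 13 of the 54 rose (24.1%) and 5 fell (9.26%), beside 10.5% and 12.2% of all genes. In the Malat1-high controls 0.495% of all genes were higher and 0.35% lower. Of 267 microRNA probe sets, 4 were higher there (1.5%) and 1 was lower. In the HFD test 41 of them rose (15.4%) and 19 fell (7.12%), beside 10.5% and 12.2% of all genes. Mir505 ran from 3.83 through 4.48 to 4.64 against 2.80 through 3.31 to 3.66 and rose by 1.19 ± 0.09 in the HFD arrays (SE; limma adjusted p = 1.1e-09). The probe sets are named for the gene, so no arm is assigned. The mature sequences of 1 arm of each of the 5 genes are shown (RefSeq, GRCm38.p6) so that their seeds, bases 2 to 8 in capitals, can be compared.
miR-505-3p: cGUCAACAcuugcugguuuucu
let-7d-5p: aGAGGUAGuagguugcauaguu
miR-204-5p: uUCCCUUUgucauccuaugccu
miR-15a-5p: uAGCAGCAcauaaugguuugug
miR-212-3p: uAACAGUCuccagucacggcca
The 10 arms of these 5 genes carry 10 distinct seeds, so no pair shares one. Mirlet7d ran from 3.05 to 4.13 in the high controls against 2.75 to 2.93, Mir204 from 2.19 to 3.23 against 1.73 to 2.18, and Mir15a from 3.0 to 4.25 against 2.36 to 2.97. Their low-class means lay below the olfactory level of 2.86, so no fold is given for them. Mir212 was 1.57-fold lower in the Malat1-high controls. Mir15a and Mir212 are named to complete the set.

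The protein-coding genes that were higher in the Malat1-high controls had a longer median length than all coding genes, and the lower ones a shorter one. Median gene length was 27.3 kb for 78 higher genes, 15.8 kb for 59 lower genes and 19.2 kb for 16750 coding genes measured. The GC content of the promoter window (250 bases before to 50 after the gene start, RefSeq, GRCm38.p6) was 59.9% at the median for 70 higher genes, 63.3% for 51 lower genes and 57.7% for 13542 genes. These are descriptions, and no test was made.

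**Figure D5:**
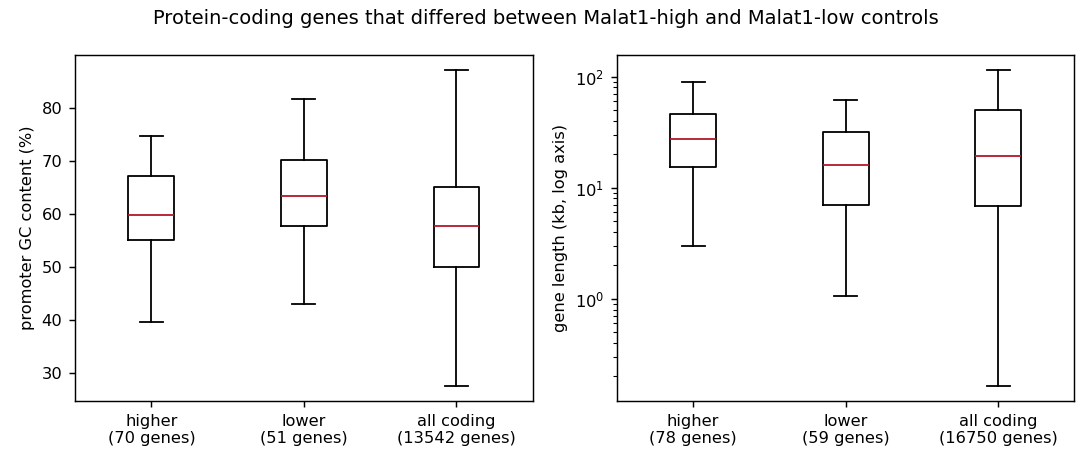
Promoter GC content (left, %) and gene length (right, kb, log axis) of coding genes higher in Malat1-high controls, lower, and of all coding genes measured. Boxes are quartiles with the median in red and whiskers reach 1.5 interquartile ranges; the median length is 27.3 kb for higher and 15.8 kb for lower genes.

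The promoter windows were searched for 3 motifs on both strands. The palindrome CTCGCGAG stood in 6 of the 70 higher genes (8.57%), in none of the 51 lower genes and in 213 of 13542 genes measured (1.57%), and in 0.919% of all RefSeq windows of this length. CCGGAAGT, an ETS-type core, stood in 14.3% of higher, 5.88% of lower and 6.07% of all genes. TATAAA stood in 4.29%, 9.80% and 13.9%. The 4 windows in which CTCGCGAG lay wholly before the start are shown by the stretch around the motif (capitals), 5′ to 3′ on the gene's strand; the genes were taken for the motif, after their values were seen.
Rbm39, chr2:156180389-156180448, minus strand: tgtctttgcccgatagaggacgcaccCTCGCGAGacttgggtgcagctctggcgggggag
Rnpc3, chr3:113630175-113630234, minus strand: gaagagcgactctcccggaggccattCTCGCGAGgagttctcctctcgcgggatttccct
Ggnbp2, chr11:84870842-84870901, minus strand: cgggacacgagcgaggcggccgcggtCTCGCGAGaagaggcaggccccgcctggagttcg
Zfc3h1, chr10:115384920-115384958, plus strand: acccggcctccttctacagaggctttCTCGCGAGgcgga
The motif began 184, 59, 85 and 13 bases before the start in these genes. The remaining pair, Hnrnph1 and Nktr, held it at or after the start. Rnpc3 encodes a protein of the minor spliceosome and Zfc3h1 a protein of nuclear RNA decay; Zfc3h1 was 1.58-fold higher in the high controls, and the low-class mean of Rnpc3, 2.82, lay below the olfactory level of 2.86, so no fold is given. A match of letters is no evidence of a binding site.

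The genes whose pattern was most like Malat1 over all 18 controls were found by Pearson correlation, as a description without a test. Cyp2d13 came first (r = 0.98), then 2610005L07Rik (0.97), Ccnl2 (0.96), Cyp2d37-ps (0.96), 4632427E13Rik (0.95), Ddx17 (0.95), Srsf5 (0.94), Luc7l2 (0.94), Ccnl1 (0.94) and Taf1d (0.93). The points share arrays and their scaling, and the classes were cut from the same values. The mean of the 3 controls between the thresholds lay between the class means for 81 of the 89 higher and 61 of the 63 lower genes. It did so for 39.4% of all genes. These counts are a description alone: the differing genes were chosen for class means far apart, which makes a mean between them likelier. Naaladl2 read 2.99, 3.13 and 2.97 on replicates 1, 7 and 17, all within the range of the low class or just above it. Srsf5 read 8.35, 7.34 and 7.59 in the same order.

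Both ranges of control numbers held arrays of each class. Differences were taken within controls 1 to 9 (6 high arrays against the low replicate 4) and within controls 10 to 18 (3 against 5). There the sign is fixed by the choice of genes whose classes do not overlap. The size is partly set too, since the genes had to be 1.5-fold apart over these same arrays. As a description, 73 and 79 of the 89 higher genes were 1.5-fold apart within the ranges in turn. Of the 63 lower genes, 56 and 34 were. Cyp2d13, for example, differed by 2.26 and 1.38, and Srsf6 by 1.21 and 0.60. With only 1 low array among controls 1 to 9, those values have no spread on that side.

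At all 3 HFD times, all 89 higher genes and 62 of the 63 lower genes kept their sign. The exception, Tmub2, differed by -0.77, -0.40 and 0.00 at 7, 14 and 21 days, and Srrm2 and Cps1, which did not differ in the controls, also changed sign between times. Srsf5 differed by 1.11, 1.5 and 2.10 at 7, 14 and 21 days, Clk1 by 1.38, 1.67 and 2.11, and Cyp2d37-ps by 1.70, 1.96 and 1.88. No gene was called for an interaction of class and time, a fit added after the data were seen (limma, 0 of 17988 genes, lowest adjusted p = 0.0582). At an unadjusted p under 0.05 there were 2218 genes, beside 899 expected by chance. The word reanalysis also parts day 21 from the other times, so a difference between times cannot be told apart from it.

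Within the HFD arrays of one number range, Malat1 varied less, with an SD of 0.55 in arrays 1 to 4 and 0.25 in arrays 5 to 8. A slope on Malat1 within these ranges called no gene (limma, 0 of 17988, with 1271 at an unadjusted p under 0.05, beside 899 expected by chance). The slope kept the sign of the class difference for 73 of the 89 higher genes but for 17 of the 63 lower genes, while 50.5% of all genes had a positive slope. Cyp2d13 had a slope of 0.65 and Cyp2d37-ps of 0.60 per log2 unit of Malat1, while the slopes of Lrp10 (0.24) and Prr23a1 (0.15) opposed their difference between the classes.

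Markers of cell types were set beside these differences. None of the 121 cell type marker genes differed in the controls, where 0.495% of all genes were higher and 0.35% lower. At those shares a count of none says little about cell content. In the HFD test 9.09% of the 121 rose and 6.61% fell, beside 10.5% and 12.2% of all genes. The 10 hepatocyte markers averaged 10.99 to 11.45 in the high controls and 11.31 to 11.54 in the low controls, all above the olfactory level. The 14 stellate cell and fibroblast markers averaged 4.92 to 5.11 in the high controls and 5.11 to 5.22 in the low controls, and 3 of them fell and none rose in the HFD test (Col1a1, Col1a2 and Ecm1, at -0.40, -0.39 and -0.34). The 16 Kupffer cell and macrophage markers averaged 5.17 to 5.68 against 5.31 to 5.53 in the controls; in the HFD test 7 rose, such as Cd5l (0.52) and Clec4f (0.33), and C1qb fell (-0.57). The 14 sinusoidal endothelial markers averaged 5.38 to 5.77 in the high and 5.31 to 5.52 in the low controls, and in the HFD test 3 rose and none fell (Emcn, Fcgr2b and Ehd3, at 0.42, 0.38 and 0.31). The 22 pancreatic acinar markers, a sign of adjoining pancreas, averaged 3.36 to 5.41 in the high, 3.43 to 6.69 in the low and 5.72 to 7.66 in the between controls, with a list median of -0.45 in controls and 0.30 in HFD arrays. In bulk tissue fewer cells of a type and less RNA per cell cannot be told apart, and the part of these markers in the gene differences was not tested, except that with the acinar mean as a covariate the control counts were 94 higher and 103 lower.

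Immediate early genes, which answer quickly to stimuli, leaned the other way. None of 23 differed in the controls, where their median was -0.21 and 0.495% of all genes were higher and 0.35% lower. In the HFD test none rose and 11 fell (47.8%, beside 12.2% of all genes). Jund fell by 0.76, Klf4 by 0.69, Dusp1 by 0.55, Jun by 0.40 and Fos by 0.31. Of 25 genes of the unfolded protein and integrated stress response, 1 rose (Dnajc3, 4% of the list) and 6 fell (24%). Among those that fell were Hyou1 (-0.67) and Calr (-0.66), chaperones of the endoplasmic reticulum. Their part in the other differences was not tested.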

How the data were processed

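Liver RNA of male C3HeB/FeJ mice had been extracted with a miRNeasy kit and DNase and labelled by the whole-transcript sense assay, per the labels' protocols. The deposited table holds log2 values of 32624 probe sets on 42 arrays; per the submitters' processing notes the authors summarised them by RMA in Affymetrix Expression Console 1.1. For the array annotation, a genome build was not given in the sources used here. No scaling was added. Medians of the arrays ran from 3.08 to 3.28. One probe set had a value on 9 arrays, controls 1 to 9, and lacked one on 33 arrays, and it was left out.

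The platform annotation gave 19558 of the complete probe sets a single gene symbol, 1469 several and 11596 none. Only the first kind was named, and a gene with several probe sets (841 genes) was taken by the brightest, which left 17989 genes with Malat1; 17912 matched a RefSeq gene table by Entrez identifier. Promoter and miRNA sequences came from RefSeq tables. No filter on dim genes was used. The 929 olfactory receptor genes, with a 95th percentile of 2.86, stood for the background level. Arrays have no read depth, and their number limits the precision.

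In the controls, classes were cut at a Malat1 value of 8.5 and 7.5, and class differences were computed with limma 3.58.1 (R 4.3.3) without p-values. In the 24 HFD arrays limma (lmFit and eBayes) compared high with low arrays with HFD time as a covariate, 2-sided, adjusted over 17988 genes at 0.05. The class and the number range of the HFD arrays hold the same arrays, so this is also a test of the label numbers. The fit was tested on simulated data.

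The arrays, the 46 gene lists and the rules were chosen with earlier results of these data known. Named genes were the 12 largest positive and 12 largest negative control differences without small, predicted or large-family genes, up to 3 differing members of each list, and 14 panel genes, of which 12 were measured. This made 49 genes. Other genes in the text stand as examples of their list in the HFD test or are said to have been picked after their values were seen. The 10 likest genes to Malat1 went by Pearson correlation. Alternatives were quantile and median scaling, a filter at the olfactory level, each array left out, an acinar covariate, a single division at 8, a 2-fold limit, number ranges, continuous Malat1, a replicate block and array weights.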

Additional observations from a re-analysis of the deposited data

Results flagged for a closer look

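In groups of 6 or 9 arrays, 4 of the 98 groups tested (2 classes of 49 named genes) had an end value far from the others, and chance flags about 1 in 20. Ddx17 read 6.83 on control replicate 8, whereas the other Malat1-high controls ran from 6.21 to 6.41. Among the Malat1-low controls, Ccnl1 read 4.5 on replicate 14 (others 3.83 to 4.08), Cyp2j9 read 4.11 on replicate 16 (others 3.64 to 3.79), and Alb read 13.51 on replicate 13 (others 13.28 to 13.36). The 3 low arrays are different ones, and no replicate was far out for more than 1 of these genes.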

How the results depend on the processing

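The 89 higher control genes became 24 at 2-fold, 299 within controls 1 to 9 and 287 within controls 10 to 18, where fewer arrays have to stay apart; without 1 array at a time they ran from 83 to 130. The 63 lower ones became 103 with the acinar covariate, 23 with the controls divided at 8, 2 at 2-fold, 532 within controls 1 to 9, 122 within controls 10 to 18, and 56 to 123 without 1 array; the cause was not tested. The 1890 higher HFD calls ran from 1646 to 2085 and the 2198 lower ones from 1908 to 2347 without 1 array; median centring gave 1442 lower ones. Of the 152 genes, 150 were shared, and 148 to 151 without 1 array.

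With Malat1 as a continuous value and the number range as a block, 0 higher, 0 lower and 0 shared genes were called (limma, 1271 at an unadjusted p under 0.05). With the replicate block there were likewise 0, 0 and 0 (832 at an unadjusted p under 0.05). By chance 899 would be expected at that level. Both of these fits leave out the difference between the ranges. Same-numbered arrays of different HFD times correlated at a median of 0.20 (-0.27 to 0.52, 24 pairs), beside 0.18 for other numbers of the same range, so the numbers were not taken to pair samples. The slope on Malat1 had the opposite sign with the range block and the replicate block for Naaladl2 (-0.35, -0.50), Prr23a1 (0.15, 0.068), Lrp10 (0.24, 0.32), Ctdnep1 (0.14, 0.094), Wdtc1 (0.22, 0.29), Slc46a1 (0.22, 0.16), Tmem94 (0.15, 0.21), Lrg1 (0.18, 0.10), Ube2n (0.23, 0.18), Zdhhc9 (0.15, 0.14), Ubl7 (0.19, 0.34), Ces2g (0.15, 0.14) and Apoa1 (0.12, 0.15), and with the range block for Zfp280d (-0.046). Scaling moved the median of all genes by under 0.1.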

Other observations

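Genes of liver metabolism and stress were read against the 10.5% of all genes that rose and the 12.2% that fell in the HFD arrays, with no test of a list. Of 25 genes of lipid and sterol synthesis, 4 rose (16%) and 6 fell (24%) with the high arrays: Srebf1, the regulator of lipogenesis, and Dhcr7, the last enzyme of cholesterol synthesis, were both at -0.74 (limma adjusted p = 0.000989 and 0.00137), and the regulator Mlxipl was at 0.61. Their control differences were -0.96, -0.87 and 0.50, and none of the 25 genes met the rule for the controls. Of 78 cytochrome P450 genes, 10 rose and 10 fell (12.8% each, near the share of all genes), with Cyp3a25 at 0.61 and the bile acid enzyme Cyp8b1 and Cyp1a2 at -0.54 and -0.64. Of 20 heat shock genes, 7 rose (35%) and 5 fell (25%): Chordc1 and Hsp90aa1 rose by 0.66 and 0.58, and the co-chaperone gene Bag3 fell by 0.58. Of 16 clock genes, 3 rose (18.8%), Per3, Clock and Rora by 0.47, 0.41 and 0.35, and 1 fell (6.25%), Hlf by 0.36.

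The 11596 probe sets without a listed gene leaned upward. Of these, 91 (0.785%) were higher and 74 (0.638%) lower in the Malat1-high controls, with a median difference of 0.11 beside 0.00 over named genes. In the HFD arrays 12.4% rose and 6.84% fell.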
